A study of Homo sapiens with 6 samples.

Results

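The 10 genes described here belong to the signalling pathway of the epidermal growth factor receptor: the ligands AREG and EREG, the receptors EGFR and EPHA2, the receptor inhibitor ERRFI1, the RAS-ERK inhibitors SPRY2 and SPRY4, and the ERK phosphatases DUSP4, DUSP5 and DUSP6. They are 10 of the 20098 protein-coding genes of chromosomes 1 to 22 and X. The set was chosen by the peaks and paired peaks of these same lists: ERRFI1 and EPHA2 entered it because they carry clusters of DNA double-strand breaks (DSBs) at both treatment times, and the other genes for their place in the same pathway. All of them were chosen with earlier results of these data known. Peak numbers, positions and clusters of the set are therefore a description, and the peak numbers of 20 and 10 min alone were compared in a test, over all genes.

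END-seq was performed on HCT116 cells, a human epithelial colorectal carcinoma line, which were left untreated (Ctrl) or treated with 10 µM camptothecin (CPT) for 10 min (CPT10) or 20 min (CPT20), in 2 biological replicates each, with a spike-in of murine pre-B cells. CPT traps topoisomerase I on DNA. END-seq ligates an adapter to free DNA ends, and each side of a break is read away from it, in the reverse list on the left and in the forward list on the right. The 4 treated libraries have 8 peak lists of 286491 to 826744 peaks, whereas no list of Ctrl was analysed here. Untreated cells therefore enter only as the input of the study's peak calling, and have no peak numbers here. Within a list every peak checked was compared with the same expected height, not with untreated cells at the same place. Places that also break in untreated cells can thus be among the peaks and clusters. The sample names give 10 and 20 as µM, but the treatment protocol gives them as minutes, and the latter reading is used. The lists carry no RNA, so the labelled cell type was not checked against its markers. In bulk DNA, more cells with a break at a position and more breaks per cell cannot be told apart.

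When a ligand such as amphiregulin (AREG) or epiregulin (EREG) binds EGFR, the receptor activates RAS and then the RAF, MEK and ERK kinases. Active ERK enters the nucleus and switches on a set of rapidly induced genes, many of which restrain the pathway. ERRFI1 binds the EGFR kinase domain, Sprouty proteins act between the receptor and RAF, and dual-specificity phosphatases remove phosphate from ERK. EPHA2 is a receptor tyrosine kinase of ephrin-A ligands whose gene is also induced by ERK signalling. In colorectal carcinoma AREG and EREG are known as ligand genes whose expression varies with EGFR dependence.

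A reverse peak and the forward peak closest to it made a paired site where the forward peak overlapped the other or lay less than 150 bp downstream. Sites that overlapped between both replicates of a time were merged into clusters. These were called persistent (replicated at both times), transient (replicated at 10 min only) or late (replicated at 20 min only). A transient or late cluster can thus still hold paired sites of the other time that were not replicated. The genome held 931 persistent, 2958 transient and 1899 late clusters. The intron or exon given for a cluster is that of its midpoint. A window is the gene body with 10 kb on each side, in hg19 coordinates.

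The reference sequence is given at places where the tallest summits of different libraries fell close together. In each persistent cluster the tallest forward and the tallest reverse summit of every library were taken, and the window with the most of these 8 summits is given for 4 of the 9 clusters, those of ERRFI1 and EPHA2, by which the set was chosen, and that of DUSP5, the widest cluster of the phosphatase genes. These 4 were picked after their values were seen. The tallest summits of both strands were taken separately, so they need not be both sides of the same break. Each sequence is the plus strand of the GRCh37 primary assembly, 5′ to 3′, and capitals mark the bases between the first and the last of these summits.
ERRFI1, intron 1, chr1:8085069-8085314: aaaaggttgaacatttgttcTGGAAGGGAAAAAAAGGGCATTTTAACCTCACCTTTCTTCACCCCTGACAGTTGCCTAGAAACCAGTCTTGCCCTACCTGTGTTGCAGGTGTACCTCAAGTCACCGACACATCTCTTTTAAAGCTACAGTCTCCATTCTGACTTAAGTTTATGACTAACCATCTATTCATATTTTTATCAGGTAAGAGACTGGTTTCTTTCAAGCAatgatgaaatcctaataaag
ERRFI1, upstream, chr1:8088202-8088401: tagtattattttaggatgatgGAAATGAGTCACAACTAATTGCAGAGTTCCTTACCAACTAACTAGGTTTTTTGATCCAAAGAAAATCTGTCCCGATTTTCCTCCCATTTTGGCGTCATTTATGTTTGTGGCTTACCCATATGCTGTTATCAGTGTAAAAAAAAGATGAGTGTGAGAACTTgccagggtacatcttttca
EPHA2, exon 3, chr1:16475153-16475367: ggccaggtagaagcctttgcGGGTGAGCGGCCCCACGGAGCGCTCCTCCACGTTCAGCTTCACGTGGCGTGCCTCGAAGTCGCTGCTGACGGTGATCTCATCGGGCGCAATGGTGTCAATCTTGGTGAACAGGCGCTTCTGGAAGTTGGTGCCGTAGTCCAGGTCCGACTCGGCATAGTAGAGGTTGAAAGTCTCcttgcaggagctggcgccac
DUSP5, intron 1, chr10:112259912-112260111: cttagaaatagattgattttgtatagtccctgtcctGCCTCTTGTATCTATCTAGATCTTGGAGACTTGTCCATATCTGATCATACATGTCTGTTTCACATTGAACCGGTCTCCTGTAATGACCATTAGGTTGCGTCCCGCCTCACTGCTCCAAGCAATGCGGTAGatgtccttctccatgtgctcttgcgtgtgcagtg
In ERRFI1 intron 1, 6 of the 8 summits, from all 4 libraries, lay within 206 bp, and the stretch shown has 39% G and C. The upstream ERRFI1 stretch held 4 summits of 3 libraries, the EPHA2 stretch 5 of 3 libraries and the DUSP5 stretch 3 of 3 libraries. The EPHA2 stretch, which is coding exon sequence, had the highest share of G and C of these 4, at 60.9%.

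Peaks were dense over most of these genes. The density of a window was its number of peaks of both strands per kb, divided by the mean of the same library over the called bases of chromosomes 1 to 22 and X, so that 1 is the mean of the library. Over the 4 libraries the median density of the 10 genes was 2.07, against 1.12 over all 20098 genes. In the first 5 kb downstream of the 5′ end the medians were 4.01 and 1.22. EREG had the highest density of the set, 3.42, which was above 99.9% of all genes, followed by DUSP5 at 3.27, ERRFI1 at 3.26, DUSP6 at 2.47, SPRY4 at 2.14, DUSP4 at 2.00, EPHA2 at 1.84, SPRY2 at 1.24, EGFR at 1.09 and AREG at 0.552. The ranges of neighbours in this order overlapped over the 4 libraries, except those of EGFR and AREG. Within each library DUSP6 lay below EREG, DUSP5 and ERRFI1, and EREG lay above ERRFI1. AREG lay below every other gene in all libraries. Density was above 1 in all 4 libraries for 8 of the 10 genes, and 32.4% of all genes met this criterion.

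**Figure D1:**
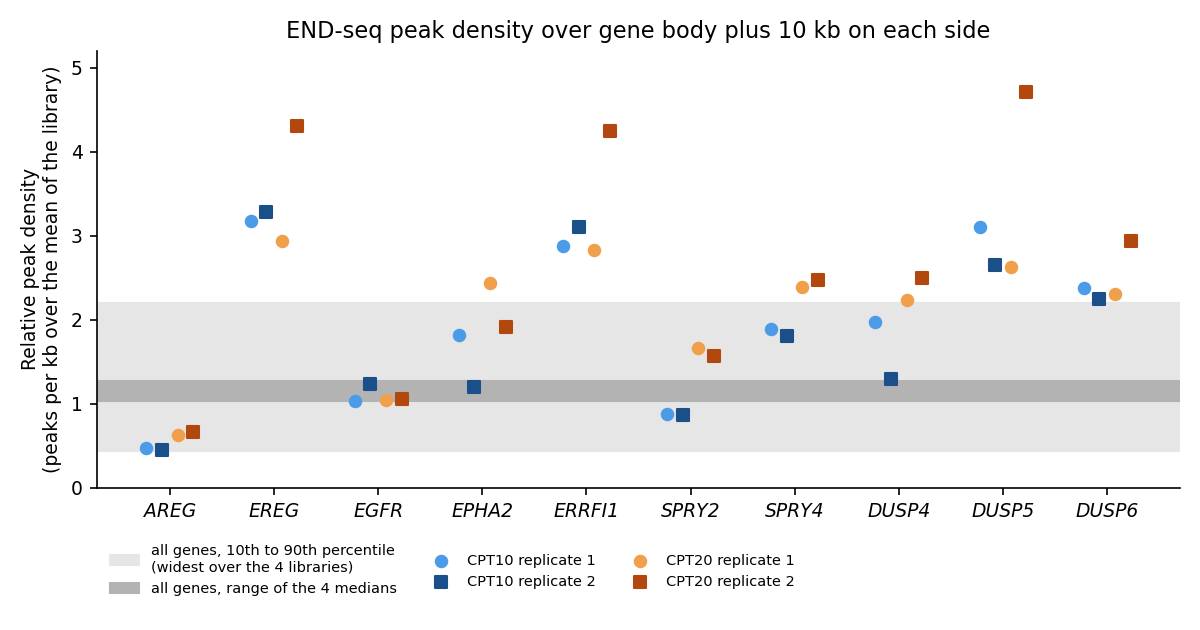
Relative END-seq peak density (linear axis, peaks per kb over the mean of the library) of the 10 genes, with 1 point per library (circles, replicate 1; squares, replicate 2; blue, CPT10; orange, CPT20). The light band spans the 10th to 90th percentile of all genes at its widest over the 4 libraries and the dark band the range of the 4 medians. EREG, ERRFI1, DUSP5 and DUSP6 lie above the light band in every library, EGFR lies near the medians and AREG below them.

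Persistent clusters were found in the windows of 6 of the 10 genes (EREG, EPHA2, ERRFI1, DUSP4, DUSP5 and DUSP6), against 4.22% of all genes. ERRFI1 and EPHA2 are among the 6 by choice. A transient cluster was found for EREG, EGFR and ERRFI1, against 10.3% of all genes, and a late cluster for EREG, SPRY4 and DUSP5, against 10.1% of all genes. The midpoint of a persistent cluster lay within 5 kb downstream of the 5′ end in EREG, ERRFI1, DUSP4, DUSP5 and DUSP6, which holds for 1.77% of all genes. The 537421 bp of the 10 windows held 9 persistent, 9 transient and 7 late clusters, or 16.7, 16.7 and 13 per Mb, whereas all gene windows held 0.423, 1.28 and 1.02 per Mb. Of these clusters ERRFI1 held 2 persistent and 5 transient ones and EPHA2 1 persistent one. The rates of the set thus include the genes by which it was chosen, and are a description. Of the genes without a persistent cluster, SPRY4 was the closest to having one. Its late cluster of 1400 bp in intron 1 had a paired site in 3 libraries and lacked it in CPT10 replicate 2, and without that library 7 genes had a persistent cluster, against 7.66% of all genes. On the other side EPHA2 stood 927th of 931 persistent clusters when each cluster was ordered by the worst of its 4 ranks among the sites of a library.

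**Figure D2:**
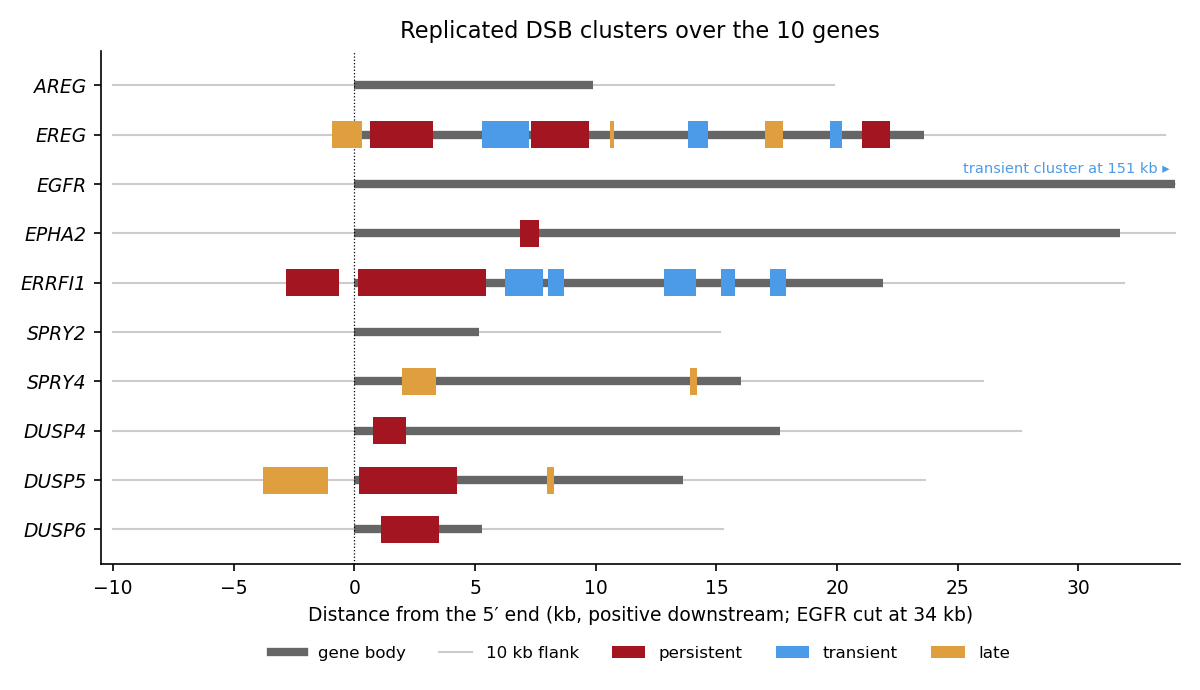
Replicated DSB clusters over the 10 genes, by distance from the 5′ end (kb, positive downstream). Dark lines are gene bodies, thin lines the 10 kb flanks and bars the clusters, coloured by class. The first persistent cluster downstream of the 5′ end begins 139 to 1105 bp from it in ERRFI1, EREG, DUSP4, DUSP5 and DUSP6, whereas that of EPHA2 is centred 7255 bp downstream.

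The 2 ligand genes, which lie near each other on chromosome 4, stood at opposite ends of the set. EREG (chr4:75230862-75254466, plus strand) had 69 and 53 peaks in CPT10 and 55 and 38 in CPT20, for densities of 3.17, 3.28, 2.93 and 4.31. Paired sites numbered 18, 12, 15 and 9. All 4 libraries were high, whereas the 1 Mb on each side had a density of 1.03. Its 9 clusters were spread over the whole body rather than gathered at the 5′ end. All of its transient clusters also had a paired site in CPT20 replicate 1. The late clusters centred at 10682 and 17381 bp also had one in a CPT10 library. The first persistent cluster covered 2612 bp, chr4:75231519-75234130, and was centred in intron 1. The weaker strand of its best site had a −log10 q-value of 21.0 and 7.39 in CPT10 and 32 and 14.5 in CPT20. The second covered 2391 bp of the same intron, and in it the tallest reverse summits of the 4 libraries lay within 118 bp, at folds of 9.69 to 15.9 over the expected height, and the forward ones within 937 bp. In every library the tallest reverse summit lay to the right of the tallest forward one, so they were not both sides of the same break. The cluster held 2 paired sites in each library. The third covered 1183 bp of the last exon, exon 5, and there the forward summits lay within 87 bp of each other and the reverse ones within 870 bp.

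AREG (chr4:75310853-75320722, plus strand) had only 7, 5, 8 and 4 peaks, densities of 0.470, 0.452, 0.623 and 0.662, and no cluster. Much of this window occurs a second time in the hg19 assembly, in AREGB on the same chromosome, with 16327 aligned bases at 99.559% identity and 6324 at 99.905%. Of the 50-base words of the AREG body 93% occur elsewhere in the assembly, against 0 to 3.25% for the other 9 genes, and the authors kept only reads with a mapping quality of at least 30. In the 22635 bp that are repeated the libraries had 1, 2, 0 and 1 peaks, and densities of at most 0.239. In the remaining 7235 bp, downstream of the gene, they had 6, 3, 8 and 3 peaks, and densities of 1.66, 1.12, 2.57 and 2.05. Outside the repeated part the window was thus above the mean of the library in all 4 libraries. Whether breaks in the repeated part were missed was not tested. A single reverse peak recurred in this part in 3 libraries, with its summit 919 to 944 bp downstream of the 5′ end.

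**Figure D3:**
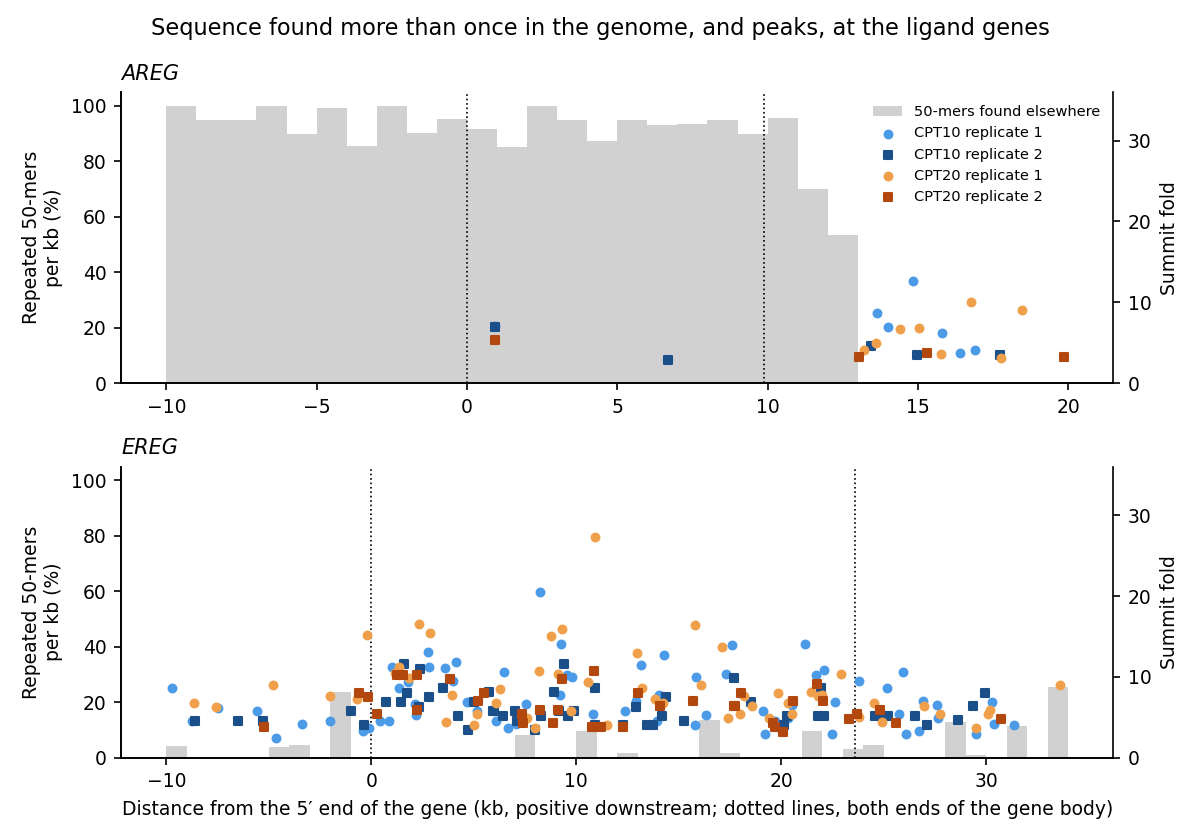
Share of 50-base words found elsewhere in the assembly (bars, left axis, % per kb) and peak summits of both strands (points, right axis, fold over the expected height) along AREG and EREG, by distance from the 5′ end in kb. Dotted lines mark both ends of the gene body. Almost all AREG peaks lie where the repeated share ends, beyond 13 kb, whereas EREG has peaks throughout.

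The receptors had few clusters. EGFR (chr7:55086710-55279321, plus strand), the longest gene of the set, had 109, 97, 95 and 45 peaks in 212612 bp, and densities of 1.03, 1.23, 1.04 and 1.05. These values were close to the medians of all genes in the same libraries, 1.13, 1.03, 1.27 and 1.05. Its 4 libraries held 5, 6, 4 and 1 paired sites, and its only cluster was a transient one of 166 bp in intron 15, 150857 bp downstream of the 5′ end. In the first 5 kb there were 1, 3, 2 and 3 peaks.

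EPHA2 (chr1:16450832-16482564, minus strand) had 47, 23, 54 and 20 peaks, densities of 1.82, 1.20, 2.43 and 1.91 and 9, 2, 12 and 2 paired sites. The mean density was 1.51 ± 0.437 (SD, n = 2) in CPT10 and 2.17 ± 0.365 (SD, n = 2) in CPT20. Its persistent cluster, chr1:16474909-16475709, covered 801 bp and was centred in exon 3, 7255 bp downstream of the 5′ end, so that the data do not place it near that end. The signal there was low. The tallest summits reached 5 to 15 fragments, and the weaker strand had a −log10 q-value of 1.85 and 2.19 in CPT10 and of 4.33 and 7.67 in CPT20. The tallest EPHA2 peaks near the 5′ end were on the forward strand alone. Their summits lay 1162, 819, 1126 and 1035 bp downstream of it, within 343 bp, with folds of 14.3 and 6.92 in CPT10 and 18.8 and 9.65 in CPT20. The tallest reverse summits of the first 5 kb were spread over 4015 bp and had folds of 3.32 to 7.73, and no replicated pair was found there. The antisense gene EPHA2-AS1 overlaps the 5′ end.

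ERRFI1 (chr1:8064464-8086369, minus strand), the inhibitor of the EGFR kinase, carried the persistent cluster of the set that stood first in the order by worst rank. It had 60, 48, 51 and 36 peaks, densities of 2.87, 3.10, 2.83 and 4.25 and 15, 11, 12 and 8 paired sites. CPT20 replicate 2 was the highest, and the other libraries lay close together. Its main persistent cluster, chr1:8080923-8086230, began 139 bp downstream of the 5′ end and covered 5308 bp, mostly of intron 1, which was wider than 95% of all persistent clusters. It held 3, 4, 3 and 3 paired sites, and the weaker strand of the best one had a −log10 q-value of 26.0 and 33.9 in CPT10 and 42.4 and 41.3 in CPT20. In that order it stood 109th of 931. The tallest forward summits of the 4 libraries lay within 109 bp and the tallest reverse summits within 311 bp, all of them 1075 to 1386 bp downstream of the 5′ end. They held 30 to 69 forward and 30 to 59 reverse fragments, or folds of 17.9 to 31.4 and 12.9 to 32.3. In CPT20 replicate 1 the reverse summit lay to the right of the forward one on the chromosome, and in the other libraries to its left. The median over libraries of the tallest fold in the first 5 kb was 27.8 for ERRFI1 and 5.53 over all genes.

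A second persistent cluster of ERRFI1 lay on the other side of the 5′ end, at −2848 to −635 bp, in chr1:8087004-8089217. This interval is in ERRFI1-DT, a non-coding gene transcribed in the opposite direction. Its −log10 q-values were 10.9, 7.39, 3.64 and 12, and it stood 785th of 931. The rest of the gene held 5 transient and no late clusters, at 7027 to 17561 bp. In 3 of these 5 a CPT20 library also had a paired site, in 1 replicate for 2 of them and in both replicates, without overlap between their sites, for the one nearest to the 5′ end. The density was 5.18 in the first 5 kb, 3.74 in the rest of the body, 2.86 in the upstream 10 kb and 1.90 in the downstream 10 kb, against 1.14 in the 1 Mb on each side.

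**Figure D4:**
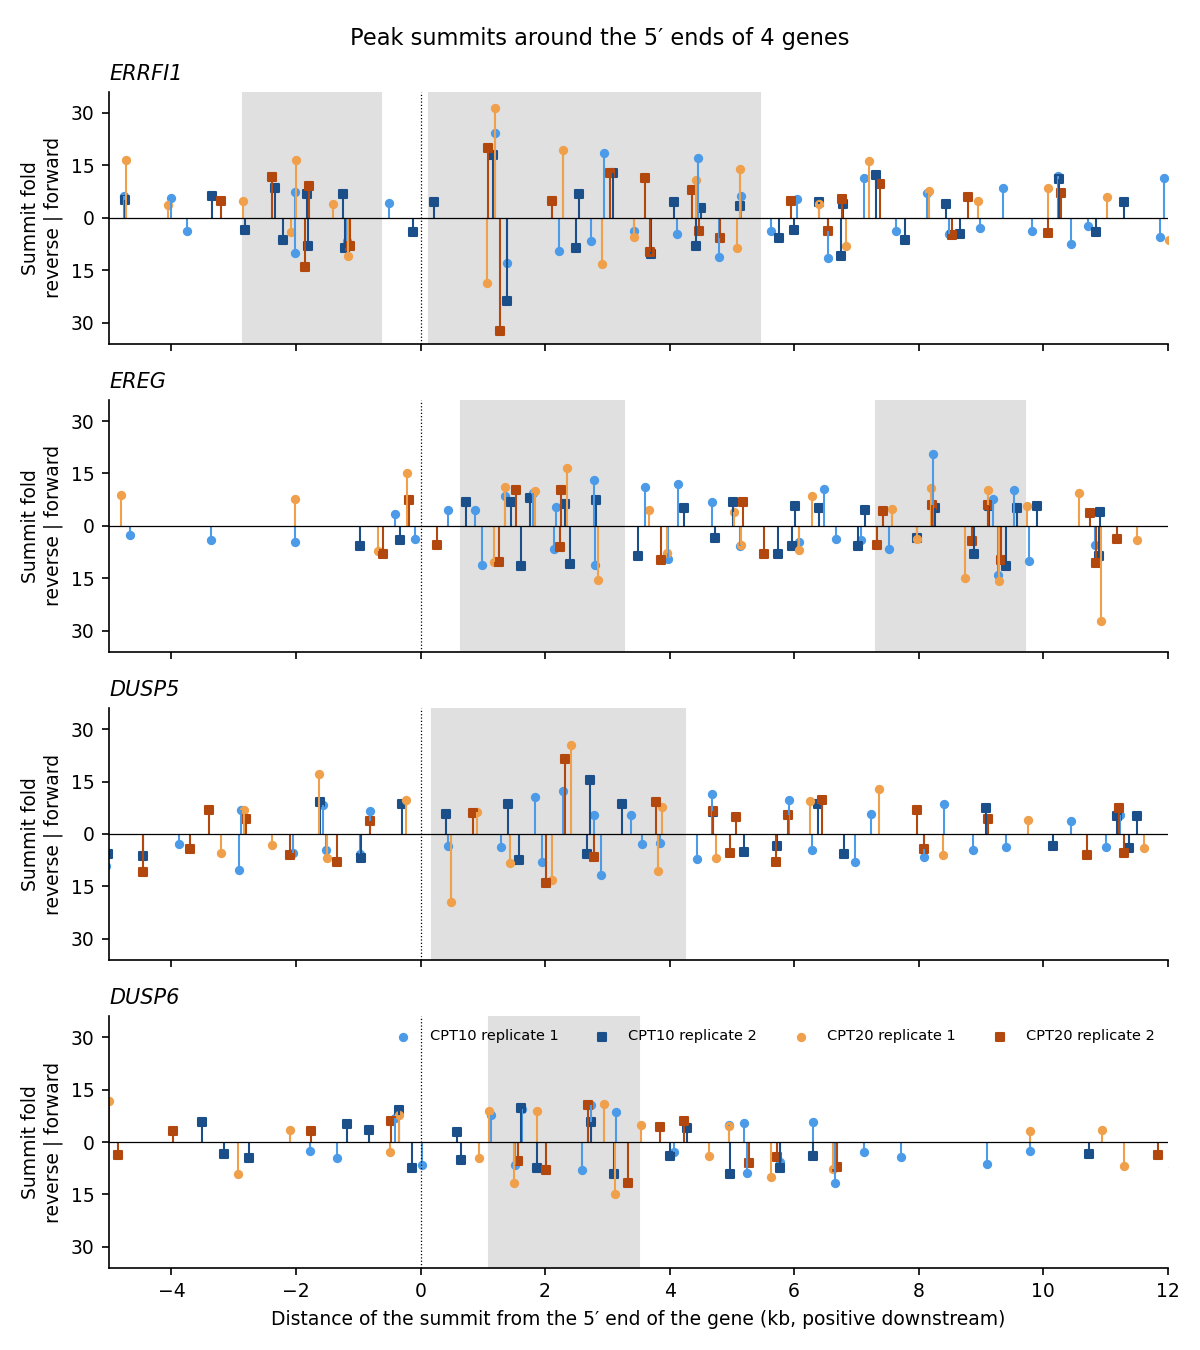
Summits of all peaks from 5 kb upstream to 12 kb downstream of the 5′ end (kb) of ERRFI1, EREG, DUSP5 and DUSP6, with the fold over the expected height on a linear axis, upward for the forward and downward for the reverse list of the genome. Colours mark the 4 libraries and grey areas the persistent clusters. In ERRFI1 the tallest summits of all libraries stand together 1075 to 1386 bp downstream of the 5′ end, and in DUSP5 the forward ones stand at 2283 to 2718 bp.

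The Sprouty genes had no persistent cluster. SPRY2 (chr13:80910111-80915261, minus strand) had 11, 8, 18 and 8 peaks, densities of 0.876, 0.860, 1.66 and 1.57 and 1, 0, 4 and 0 paired sites. Both CPT20 values were above both CPT10 values, but only 8 to 18 peaks stood behind each. SPRY4 (chr5:141689992-141706020, minus strand) had 34, 24, 37 and 18 peaks and densities of 1.89, 1.80, 2.39 and 2.47. Both of its clusters were late, of 1400 bp in intron 1 and of 287 bp in exon 2. The second rested on weak peaks, with −log10 q-values of 2.14 and 3.29. SPRY4-AS1, on the other strand, begins inside the gene.

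The 3 ERK phosphatase genes each had 1 persistent cluster in the first 5 kb. DUSP4 encodes a nuclear enzyme, and its gene (chr8:29190581-29208201, minus strand) had 37, 18, 36 and 19 peaks and densities of 1.97, 1.29, 2.23 and 2.5. The cluster covered 1364 bp and was centred in intron 1, and its −log10 q-values were 6.30 and 8.43 in CPT10 and 9.74 and 13.3 in CPT20. In the first 5 kb the density was 4.31, whereas it was 0.914 in the upstream 10 kb.

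DUSP5, whose product is a nuclear phosphatase of ERK, lies at chr10:112257665-112271291 on the plus strand. It had 52, 33, 38 and 32 peaks, densities of 3.10, 2.65, 2.63 and 4.71 and 14, 5, 7 and 6 paired sites. CPT20 replicate 2 again gave the highest value. The persistent cluster, chr10:112257845-112261913, covered 4069 bp from 180 bp downstream of the 5′ end, with −log10 q-values of 12.1, 8.48, 25.2 and 24.2. Late clusters stood on both sides of it, of 2685 bp upstream in the divergent gene DUSP5-DT and of 292 bp in intron 2. Both late clusters also had a paired site in CPT10 replicate 1. The 1 Mb on each side of DUSP5 had the highest density of the set, 1.75, and the gene exceeded it by a factor of 1.85.

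DUSP6 (chr12:89741012-89746278, minus strand), which encodes a cytoplasmic phosphatase of ERK, had 30, 21, 25 and 15 peaks and densities of 2.38, 2.25, 2.30 and 2.94. Nearly all of its body of 5267 bp lies in the first 5 kb, where the density was 4.65. Its persistent cluster, chr12:89742767-89745173, covered 2407 bp with −log10 q-values of 12.1, 8.48, 18.6 and 15.8. The tallest reverse summits held 15 to 32 fragments and were spread over 742 bp.

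Forward and reverse peaks were not equally frequent everywhere. The share of reverse peaks exceeded that of the whole list in all 4 libraries for AREG, SPRY4 and DUSP4, against 24.9% of all genes. DUSP4 had 31 forward and 79 reverse peaks over the 4 libraries and SPRY4 37 and 76, whereas ERRFI1 had 106 and 89, and DUSP5 78 and 77. DUSP4 and SPRY4 lie on the minus strand, where 27.8% of genes had such an excess, against 22% on the plus strand. EREG was the gene of the set with an excess of forward peaks in every library, which 24.5% of plus-strand genes had. Among the 10 genes the excess was thus about as frequent as among all genes.

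The peak number of each gene was then compared between 20 and 10 min of CPT. With limma on log2 scaled peak numbers, 17058 genes had a mean of at least 10 peaks and were tested, among them 9 of the 10 genes described here (not AREG), and none of the 17058 passed an adjusted p of 0.05 as higher (0%) or as lower (0%) in CPT20. At an unadjusted p under 0.05 there were 666 genes, none of them from the set. The log2 difference, CPT20 minus CPT10, was 0.87 ± 0.48 (SE) for SPRY2, 0.56 ± 0.32 for DUSP4, 0.55 ± 0.29 for EPHA2, 0.40 ± 0.30 for SPRY4, 0.30 ± 0.29 for DUSP5, 0.23 ± 0.26 for ERRFI1, 0.19 ± 0.34 for DUSP6, 0.15 ± 0.25 for EREG and −0.10 ± 0.20 for EGFR, each with an adjusted p of 0.996 in limma. The median of these 9 values was 0.30, and that of all genes tested was 0.13. With lists of equal length, where 8 of the set were tested, these medians were 0.06 and 0.11, and scaled to the 1 Mb on each side they were 0.14 and 0.07. Both CPT20 densities were above both CPT10 densities for 5 of the 10 genes (AREG, EPHA2, SPRY2, SPRY4 and DUSP4), against 22% of all genes, and both were below for 0, against 8.73% of all genes. For the other 5 (EREG, EGFR, ERRFI1, DUSP5 and DUSP6) the values of both times overlapped. Without CPT20 replicate 2 the median of the 9 genes was −0.01 and that of all genes 0.23, and without CPT20 replicate 1 they were 0.45 and 0.07.

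**Figure D5:**
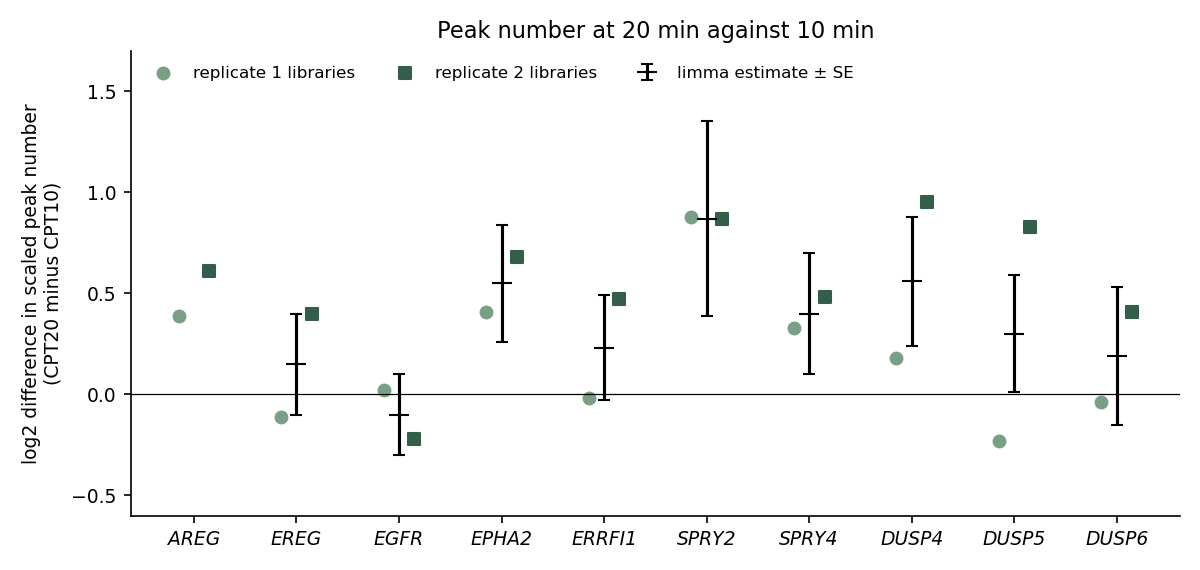
Difference in log2 scaled peak number, CPT20 minus CPT10, for each gene. Circles and squares are the differences within replicate 1 and within replicate 2, and the horizontal marks are limma estimates with their SE (AREG was not tested). Values of replicate 2 lie above those of replicate 1 for all genes except SPRY2 and EGFR.

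The share of all paired sites that fell in the 10 windows was also set side by side. It was 78 of 102733 (0.0759%, 95% Wilson interval 0.0608 to 0.0947) and 46 of 54794 (0.084%, 0.0629 to 0.112) in CPT10. In CPT20 it was 70 of 85813 (0.0816%, 0.0646 to 0.103) and 35 of 18831 (0.186%, 0.134 to 0.258). CPT20 replicate 2, the library with the fewest sites, stood apart, and the other 3 had overlapping intervals, which cover counting error only. The log2 ratio of the group means was 0.74. It is given with no test, since the set was chosen by these sites and an exact permutation test of 2 against 2 libraries allows no p below 0.333. The ratio was 0.10 within replicate 1, 1.15 within replicate 2, 0.03 without CPT20 replicate 2 and 0.05 with lists of equal length. The windows make up 0.019% of the called bases.

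Of 69 further genes of the pathway, listed by textbook role, 10 had a persistent cluster in their window, against 4.22% of all genes, and the median density of the list was 1.32. The list was written with earlier results of these data known, so these values are a description. The clusters were unevenly divided between roles. Of the 10 transcription factors and effectors induced by ERK, 4 had one (EGR1, FOSL1, PHLDA1 and HMGA2), and their median density was 1.79. Of the 7 other dual-specificity phosphatases it was DUSP1 and DUSP2, of the 7 adaptors and RAS activators GRB2 and PTPN11, of the 6 receptor inhibitors and ubiquitin ligases SOCS4, and of the 11 other EPHA receptors and ephrin-A ligands EPHA1. Some of these clusters lay far from the 5′ end of the gene, centred at −10893 bp for PTPN11, 26356 bp for SOCS4 and 25315 bp for EPHA1. Over the gene body alone 6 of the 69 genes had a persistent cluster, against 2.87% of all genes. None of the 9 other ligands of the EGF family had one, nor had the 3 other ERBB receptors, the 2 ligand sheddases, the 10 genes of RAS, RAF, MEK and ERK or the 4 other SPRY and SPRED genes. Among the genes induced by ERK, IER3 had a density of 0 in its window. It enters the median of 1.79 and counts as a gene without a cluster. Whether breaks in its window could be read was not tested.

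The genes most like ERRFI1 in peak numbers of the first 5 kb over the 8 lists were RPS27A, RPL30 and ARF6, at Euclidean distances of 0.601 to 0.728 on the log2 scale, where the median gene was at 4.63. RPS27A and RPL30 encode ribosomal proteins and ARF6 a small GTPase. Each of the 3 had a persistent cluster, and densities of 5.09 to 5.29 in the first 5 kb. The genes were matched on these peak numbers, so such densities follow from the choice, and clusters are made from the same peaks. Those most like EPHA2 were PRDM10, TPRG1 and ZNF747, at distances of 0.76 to 0.826 (median gene 2.92), and none of them had a persistent cluster.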

How the data were processed

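Samples were grouped by the labels into Ctrl, CPT10 and CPT20, with 2 samples each. According to the study's methods, the authors trimmed reads with Trim Galore 0.6.5 and aligned them to hg19 with Bowtie2 2.5.0. They kept proper pairs of mapping quality at least 30, duplicates included, with SAMtools 1.16.1. Peaks were called with MACS2 2.2.7.1 for each library and strand at a q-value of 0.05. The control was given as input, with the nolambda option, which sets a fixed background. The deposited lists give each peak a fold enrichment over the expected height (a linear ratio), and −log10 p-values and −log10 q-values of the summit are deposited beside it. Fragments at a summit were recovered from the deposited fold, which gave whole numbers to within 0.01 for the peaks checked. The tallest peaks were not part of this check. The expected height, a relative measure of depth, was 0.727 to 1.44 fragments per list. Spike-in scaling does not enter these lists, and read totals are not given in them. Depth does act on them through the expected height, and the lowest summits held 4 to 6 fragments, depending on the list. The study's blacklist and its test of reads in treated against untreated cells were not repeated.

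Genes came from GENCODE release 44 mapped to GRCh37, the build of the lists. Sites were made with bedtools 2.31.1, replicated sites overlapped by at least 1 bp, and copies of AREG were aligned with blastn 2.17.0. Peak numbers plus 1, scaled by library total, were tested on the log2 scale with limma 3.58.1 (R 4.3.3) over all genes with a mean of at least 10 peaks, with Benjamini-Hochberg adjustment. The replicates are biological by the series' design. The members and the gene lists were chosen with earlier results of these data known. All 10 members are named, pathway genes where they hold a persistent cluster, and the 3 genes most like ERRFI1 and EPHA2 each. Alternatives were stricter q-values, lists of equal length, other windows, pairing distances, overlaps and scalings, a replicate block, and each library left out.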

Additional observations from a re-analysis of the deposited data

How the results depend on the processing

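The median density of the 10 genes was 2.07. It was 2.81 with a −log10 q-value of at least 3, 6.0 with at least 10, 2.75 with lists of equal length, 2.83 over the gene body alone and 1.86 relative to the 1 Mb on each side, and 1.93 to 2.24 with a library left out. Persistent clusters in 6 of the 10 genes and 10 of 69 pathway genes became 1 (ERRFI1) and 2 with a −log10 q-value of at least 10, against 0.617% of all genes, and 0 and 0 where overlapping pairs were left out, against 0.0249% of all genes. Over the gene body alone 6 of the 10 genes and 6 of 69 pathway genes had one, against 2.87% of all genes. With a library left out the counts were 6 to 7 and 9 to 12. EPHA2 lost its cluster with a −log10 q-value of at least 3, with lists of equal length, with the stricter overlap between replicates and with pairs under 50 bp, which also removed DUSP4. ERRFI1, EREG, DUSP5 and DUSP6 kept theirs in all 4 of these settings.

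In limma no gene was called in 12 of 13 alternatives, and 15 of 17058 (4 higher, 11 lower, none of the set) without CPT20 replicate 1, so that leaving out a library gave 0 to 15 calls. Of 107 log2 differences of the genes under alternatives 9 were reversed, none past the threshold on either side. Without CPT20 replicate 2 the values were −0.07 for ERRFI1, −0.14 for EREG, −0.12 for DUSP5 and −0.01 for DUSP6, with a median of −0.01 over the set. With lists of equal length ERRFI1 and EREG were at −0.11, EREG was at −0.01 with a −log10 q-value of at least 3 and at −0.03 when scaled to 1 Mb on each side, and EGFR was at 0.03 without CPT10 replicate 2. With a library left out the log2 differences were −0.07 to 0.52 for ERRFI1, −0.14 to 0.43 for EREG, −0.23 to 0.03 for EGFR, −0.12 to 0.72 for DUSP5, −0.01 to 0.38 for DUSP6, 0.36 to 0.45 for SPRY4, 0.87 to 0.88 for SPRY2, 0.26 (without CPT10 replicate 2) to 0.83 (without CPT10 replicate 1) for EPHA2 and 0.28 to 0.85 (the same libraries) for DUSP4, and their median was −0.01 to 0.45. The cause of these changes was not tested. The log2 ratio of site shares was above 0 in all 12 alternatives, 0.05 with lists of equal length, and 0.03 to 1.22 with a library left out. The labels do not say that a replicate number marks a shared experiment. Same-numbered libraries deviated together with r = 0.304 over genes, in 2 pairs. With the replicate number as a block limma called 0 genes, with 1885 at an unadjusted p under 0.05, among them EPHA2, DUSP4 and SPRY2, and the log2 ratio of site shares within the block was 0.63. A persistent cluster was found in 4.84 to 7.66% of all genes with a library left out, against 4.22% with all 4.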

Other observations

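Among the other genes of the pathway, FOSL1 and HMGA2, which encode transcription regulators induced by ERK, had the highest densities of those with a persistent cluster, 3.38 and 3.21, above 99.8% and 99.7% of all genes. HMGA2 had 4 persistent, 4 transient and 5 late clusters, and 1 of the persistent ones covered 8779 bp. FOSL1 had 3 persistent clusters, and PHLDA1, a pleckstrin homology-like protein, had 2, the widest of them of 5349 bp. In the first 5 kb the densities were 6.27 for PHLDA1, 5.22 for DUSP2, 5.15 for DUSP1 and 4.57 for EGR1, all of them above the median of 4.01 of the 10 genes described above. The cluster of DUSP1, a nuclear phosphatase of MAP kinases, covered 4949 bp and was centred 1975 bp downstream of its 5′ end, and that of EGR1 covered 4851 bp and was centred at 2381 bp.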
